A study of Mus musculus with 2 samples.

Results

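Apod Cxcl14 fibroblasts are a class of connective tissue cells in mouse parathyroid glands that were grown from embryonic stem cells, and they were selected by counting marker genes in single-cell RNA-seq data. The class held 247 cells, 93 in replicate 1 and 154 in replicate 2, out of 680 fibroblasts and 4924 cell barcodes. A barcode was taken as a fibroblast if it had at least 500 genes, under 15% mitochondrial transcripts and under 1% parathyroid hormone (Pth) transcripts. In addition, Col1a1, Col1a2, Col3a1 and Dcn together had to make up at least 0.2% of its unique molecular identifiers (UMIs, each standing for 1 captured transcript), with at most 1 UMI of Ptprc, an immune gene, and 1 of Cdh5, an endothelial gene. Each fibroblast was then scored by how many genes it showed with a UMI in each of 3 sets of 5. Members had strictly more genes of the set Apod, Cxcl14, Ntrk3, Ptn and Srpx than of either other set. Cells led by A2m, Spon1, Unc5c, Sntg1 and Lrat (A2m Spon1 fibroblasts, 42 and 115 cells) and by Pappa2, Cilp, Fndc1, Gpc3 and Ndnf (Pappa2 Cilp fibroblasts, 55 and 92 cells) served for comparison. The remaining 39 and 90 fibroblasts had no single leading set.

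The study sequenced 2 libraries of 1 group, so it held no untreated or wild-type tissue to compare with. Both libraries came from Gcm2-/- hosts on a BDF1B6 background that had been complemented with Pth-tdTomato mouse ESCs. Glands of 3 mice, 9 to 12 weeks old and with chimerism of 50 to 70% in peripheral blood, were pooled for replicate 1. For replicate 2 the 5 mice were 6 to 13 weeks old and the chimerism was 60 to 70%. Each pool mixed males and females, so single mice could not be separated. The hosts lack Gcm2, which is needed to form the gland, while connective tissue in such a chimera can descend from host or stem cells.

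Fibroblasts build and remodel the extracellular matrix of an organ and send growth factors and chemokines to its other cells. Those in the sheath of vessels and the capsule (adventitial) are known to express other genes than those between the parenchymal cells, which lie close to capillaries and their basement membranes. Of the set that chose the cells, Apod encodes the lipid-binding lipocalin apolipoprotein D, Cxcl14 a chemokine, Ntrk3 the receptor TrkC for neurotrophin-3, Ptn the heparin-binding growth factor pleiotrophin, and Srpx a secreted protein with sushi repeats. Ntrk3, Ptn and Apod are also well known from peripheral nerve.

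Members had medians of 19355 and 18312.5 UMIs per cell in replicates 1 and 2, below the medians of A2m Spon1 cells (24462 and 21698) and Pappa2 Cilp cells (22234 and 19467). Their summed totals were 1837033 and 2888476 UMIs. Mitochondrial transcripts were at medians of 1.98% and 2.27%, and Pth, which parathyroid cells make in abundance, at 0.121% and 0.129%. The libraries shared 3 barcodes, 0 of them fibroblasts. A doublet caller marked 0 fibroblasts. Of general fibroblast markers outside the rule, members carried Pdgfra at 1001 and 788 CPM (UMIs scaled to a total of 1e6 for the class in its library) and Lum at 1377 and 1706 CPM.

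As a share of fibroblasts, members made up 40.6% (exact binomial 95% interval 34.2 to 47.3) in replicate 1 and 34.1% (29.8 to 38.7) in replicate 2, or 37.4% ± 4.57 (SD, n = 2). A2m Spon1 cells made up 21.9% ± 5.06 and Pappa2 Cilp cells 22.2% ± 2.56. These intervals cover counting error only, and since the rule, the digestion and the depth per cell set the shares, no test was made.

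The levels of the set genes follow from the selection and are given as a description. Apod stood at 1062 CPM in replicate 1 and 645 in replicate 2 of the members, at 246 and 94.5 in A2m Spon1 cells and at 103 and 49.1 in Pappa2 Cilp cells. Cxcl14 stood at 520.4 and 505 CPM, against 78.2 and 35.9 and then 12.3 and 1.14. Ntrk3 was at 168 and 109 CPM, against 11.6 and 0.807 and then 3.28 and 1.14. For these 3 genes both libraries of the members lay above all 4 sums of the other classes, with the A2m Spon1 cells in between in replicate 1. Ptn differed less, at 4969 and 5412 CPM in members, 3664 and 3095 in A2m Spon1 cells and 2139.7 and 1428 in Pappa2 Cilp cells. Srpx was at 338 and 369.7 CPM, against 135 and 151 and then 135 and 123, so that all 3 classes carried both genes.

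**Figure D1:**
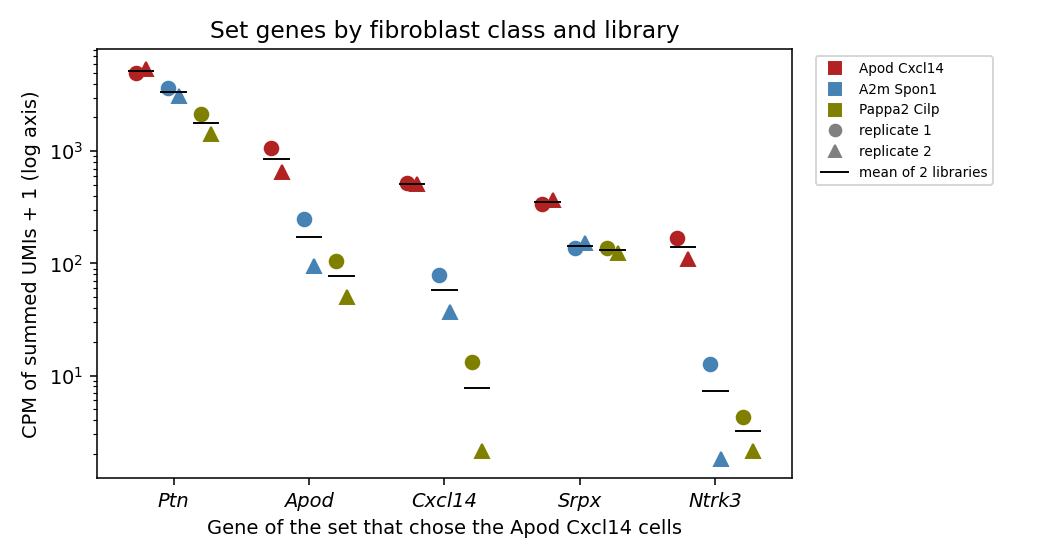
Level of the 5 genes of the set that chose the Apod Cxcl14 cells, as CPM of summed UMIs plus 1 on a log axis, for each fibroblast class (colour) and library (symbol), with the mean of the 2 libraries as a line. Cxcl14 and Ntrk3 separate the classes most, while Ptn and Srpx are high in all 3.

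The 5 set genes were spread unevenly over single members. Ptn had a UMI in 98.9% and 100% of members, Srpx in 97.8% and 95.5%, Apod in 93.5% and 92.9%, Cxcl14 in 65.6% and 68.8%, and Ntrk3 in 55.9% and 51.3%. Every pair of genes was seen together in many cells: Apod with Ntrk3 in 49 and 73 members, and Cxcl14 with Ntrk3 in 35 and 55. The count of these genes chose the members, so such pairs and the shares of cells given here follow largely from the selection. All 5 genes were present in 32 and 50 members, 4 in 43 and 73, 3 in 15 and 25, and 2 in 3 and 6. Where a single gene was missing, it was Ntrk3 in 24 and 46 cells and Cxcl14 in 16 and 22. With every cell thinned to 5000 UMIs, Ntrk3 was seen in 40.7% and 28.1% of members, against 2.44% and 0.885% of A2m Spon1 cells, 1.85% and 1.11% of Pappa2 Cilp cells and 0.299% and 0.225% of parathyroid cells. Parathyroid cells (688 and 2265 cells with at least 1% Pth) show the level that free RNA or another source gives. For Cxcl14 they do not serve as that background, because 65.0% and 63.3% of them had a UMI of it (22.6% and 25.2% after thinning), against 7.27% and 1.09% of Pappa2 Cilp cells (3.70% and 1.11% after thinning).

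The boundary of the class was not sharp. In 25 and 57 members the set led by 1 gene only, in 24 and 50 by 2, in 27 and 35 by 3, in 15 and 12 by 4 and in 2 and 0 by 5. Just inside, the cells that led by 1 gene had 759 and 507 CPM of Apod and 88.3 and 37.8 CPM of Ntrk3. Just outside, fibroblasts in which the set was level with the best other one (31 and 69 cells with a set gene) had 381 and 258 CPM of Apod and 22.1 and 22.3 CPM of Ntrk3. Both genes are counted in the lead, so this step follows from the rule and is given as a description. Members also carried genes of the other sets: 81 of 93 and 149 of 154 had at least 1 gene of the A2m set, and 48 and 88 at least 1 of the Pappa2 set.

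To ask what else differed, UMIs were summed per class and library and the 6 sums were compared with edgeR's quasi-likelihood test, with the library as a block. Genes of the rule and mitochondrial genes were not counted, which left 10857 genes. Against the mean of the other 2 classes, 371 genes (3.42% of those tested) were higher and 337 (3.1%) lower at an adjusted p of 0.05 (Benjamini-Hochberg), 193 and 136 of them by at least 1 on the log2 scale. Against A2m Spon1 cells alone, 131 (1.21%) were higher and 150 (1.38%) lower. Against Pappa2 Cilp cells, 452 (4.16%) were higher and 454 (4.18%) lower. The last 2 comparisons share the member sums and are given side by side. Without the library block the counts against the mean fell to 93 and 42, those against A2m Spon1 cells to 4 and 1 and those against Pappa2 Cilp cells to 154 and 141. The 3 marker sets were chosen with results of these same cells known, so the calls show how stable the class differences were between 2 pools of mice, not that the classes are separate cell types.

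**Figure D2:**
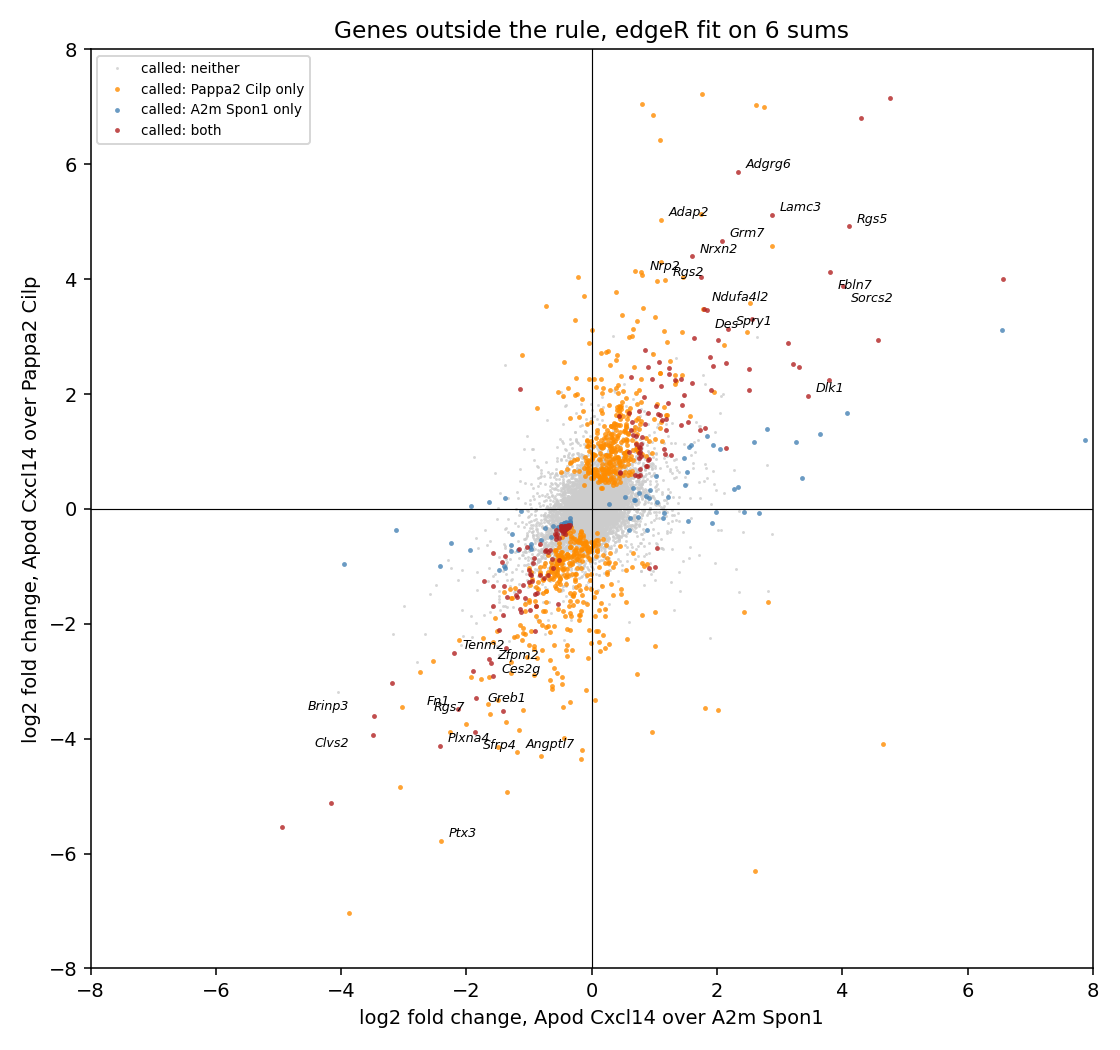
Each point is 1 of the 10857 genes outside the rule, by its log2 fold change of Apod Cxcl14 cells over A2m Spon1 cells (x axis) and over Pappa2 Cilp cells (y axis), coloured by the comparison in which edgeR called it. The 14 genes named as most higher lie at the upper right and the 12 named as most lower at the lower left, with Rgs5 among the first.

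The genes with the largest increases were named among those with at least 20 CPM in members. Of these 14, apart from Rgs5, which is described below, Adgrg6 had the largest log2 fold change. It encodes an adhesion G protein-coupled receptor best known for its role in Schwann cell myelination. It stood at 75.7 and 56.8 CPM in members, 21.1 and 7.67 in A2m Spon1 cells and 0.820 and 1.14 in Pappa2 Cilp cells, a log2 fold change of 4.10 (SE 0.30, adjusted p 8.04e-06 by edgeR) against their mean. Against Pappa2 Cilp cells, where it rests on 3 UMIs, the ratio was 63.5 with a counting interval of 21.5 to 309. Lamc3, the gamma 3 chain of laminin, was at 65.9 and 83.4 CPM, against 10.6 and 9.69 and then 3.28 and 1.14 (log2 4.002, SE 0.26, adjusted p 2.32e-06 by edgeR). Both libraries of the members lay above all sums of the other classes for both genes. After thinning, Lamc3 was seen in 18.7% and 24.2% of members, 7.32% and 2.65% of A2m Spon1 cells, 1.85% and 1.11% of Pappa2 Cilp cells and 0.150% and 0.135% of parathyroid cells. Fbln7, a fibulin of the cell matrix, was at 31.0 and 32.5 CPM, against 4.23 and 1.21 and then 3.28 and 0.571 (log2 3.97, SE 0.39, adjusted p 4.71e-05 by edgeR). Parathyroid cells had 13.6 and 16.0 CPM of Fbln7, above both other fibroblast classes, and 9.97 and 8.88 CPM of Adgrg6. As with Cxcl14, they do not serve as a background for these 2 genes.

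Spry1, an inhibitor of signalling from growth factor receptors, was among the most widespread of these genes, with a UMI in 77.4% and 65.6% of members (42.9% and 30.1% after thinning), against 9.76% and 8.85% of A2m Spon1 cells and 3.70% and 4.44% of Pappa2 Cilp cells after thinning. Its levels were 129.6 and 92.4 CPM in members, 28.5 and 19.4 in A2m Spon1 cells and 12.3 and 11.4 in Pappa2 Cilp cells (log2 2.66, SE 0.16, adjusted p 2.06e-06 by edgeR). Parathyroid cells had Spry1 in 9.73% and 5.72% after thinning and at 19.7 and 13.1 CPM, above Pappa2 Cilp cells, so they do not serve as its background.

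Adgrg6, Fbln7 and Spry1 were higher against each of the other classes, and their promoters are shown so that the sequences of genes that moved together can be compared. Without the library block Adgrg6 and Fbln7 did not pass against A2m Spon1 cells (adjusted p 0.0935 and 0.0621 by edgeR), while Spry1 did (adjusted p 0.0352). The windows run from 250 bases before to 50 after the start that RefSeq gives on build GRCm38.p6. They are written 5′ to 3′ on the strand of the gene, with each GC box (GGGCGG or its reverse complement) in capitals. They lie at chr10:14544987-14545286 on the minus strand, chr2:128863682-128863981 on the plus strand and chr3:37639697-37639996 on the plus strand.
Adgrg6: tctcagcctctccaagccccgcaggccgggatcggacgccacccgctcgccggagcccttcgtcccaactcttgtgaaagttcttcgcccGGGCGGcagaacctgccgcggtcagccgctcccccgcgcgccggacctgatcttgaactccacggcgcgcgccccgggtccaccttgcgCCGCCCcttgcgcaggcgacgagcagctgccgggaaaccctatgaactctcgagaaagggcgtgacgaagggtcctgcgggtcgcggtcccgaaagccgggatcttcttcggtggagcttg
Fbln7: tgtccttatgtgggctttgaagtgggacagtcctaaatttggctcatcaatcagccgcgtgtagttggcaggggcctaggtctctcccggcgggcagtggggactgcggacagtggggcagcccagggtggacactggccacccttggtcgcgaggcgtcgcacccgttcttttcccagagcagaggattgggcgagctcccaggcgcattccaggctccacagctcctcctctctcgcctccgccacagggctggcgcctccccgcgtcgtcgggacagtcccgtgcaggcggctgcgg
Spry1: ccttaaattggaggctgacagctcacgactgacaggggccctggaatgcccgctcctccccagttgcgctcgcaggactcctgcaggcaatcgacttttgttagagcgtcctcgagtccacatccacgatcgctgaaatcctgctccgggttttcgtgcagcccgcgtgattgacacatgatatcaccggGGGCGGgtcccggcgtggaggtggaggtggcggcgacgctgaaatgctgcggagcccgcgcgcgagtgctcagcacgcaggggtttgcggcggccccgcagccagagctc
All 3 windows were rich in G and C, at 69.0%, 66.0% and 64.3% against a median of 52.7% over 32851 mouse promoter windows. The window of Adgrg6 held 2 GC boxes, that of Spry1 held 1 and that of Fbln7 held 0, while 35.7% of all windows held at least 1. Other motifs searched on both strands were the E-box CANNTG (1, 0 and 2 matches, present in 72.3% of all windows), the AP-1 site TGANTCA (0 in each, 7.81% of all) and the TATA box TATAAA (0 in each, 13.6% of all). Such a match describes the letters and is not a mapped binding site. Of the genes named as most changed, 10 of 14 higher and 8 of 12 lower ones had a window in the table.

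Grm7, Sorcs2, Nrxn2 and Nrp2, all known from nerve cells, were also named as higher, while other genes known from nerve cells were named as lower. Grm7, a metabotropic glutamate receptor, was at 316 and 109 CPM in members, 59.2 and 30.7 in A2m Spon1 cells and 4.10 and 9.14 in Pappa2 Cilp cells (log2 3.37, SE 0.24, adjusted p 8.04e-06 by edgeR). Sorcs2, a sorting receptor that binds pro-neurotrophins, was at 70.8 and 21.8 CPM, against 5.28 and 0.807 and then 4.10 and 1.71 (log2 3.95, SE 0.30, adjusted p 8.35e-06 by edgeR). Both were higher in replicate 1 of the members than in replicate 2, and each library of the members was above every sum of the other classes. Nrxn2, a neurexin of synaptic adhesion, was at 40.3 and 36.4 CPM (log2 3.00, SE 0.37). Nrp2, a neuropilin that binds class 3 semaphorins and VEGF, was at 44.6 and 19.0 CPM (log2 2.88, SE 0.32), with 29.3% of its UMIs in replicate 1 from 1 cell.

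The remaining named genes were of mixed function. Dlk1, a Notch-related protein known for holding back adipocyte differentiation, was at 134 and 69.6 CPM in members, 8.45 and 7.27 in A2m Spon1 cells and 43.5 and 10.9 in Pappa2 Cilp cells (log2 2.71, SE 0.22), yet only 18.3% and 16.9% of members had a UMI of it. Des, the intermediate filament desmin, was at 28.9 and 40.2 CPM against 2.86 to 10.9 in the other sums (log2 2.65, SE 0.26). Ndufa4l2, a mitochondrial protein that is induced by low oxygen, was at 50.6 and 52.3 CPM against at most 14.8 in the other sums (log2 2.64, SE 0.22). Rgs2, a regulator of G protein signalling, was at 33.8 and 24.9 CPM (log2 2.58, SE 0.38). Adap2, a GTPase-activating protein, was at 19.6 and 29.4 CPM (log2 3.07, SE 0.36). Against A2m Spon1 cells alone, Rgs2 and Adap2 did not pass, with adjusted p-values of 0.147 and 0.091 by edgeR.

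The largest of the 14 increases was that of Rgs5, a defining gene of pericytes and vascular smooth muscle, and it came from few cells. Rgs5 was at 32.7 and 16.6 CPM in members against 0 to 1.61 in the other sums (log2 4.51, SE 0.54, adjusted p 0.000192 by edgeR), and 1 cell held 96.7% of its UMIs in replicate 1 and another 97.9% in replicate 2. Of the members, 1 cell in replicate 1 and 2 cells in replicate 2 had at least 5 UMIs of Rgs5, Acta2 and Myh11 together, with 134, 48 and 6 such UMIs. The other 2 classes held 0 such cells. Without these cells 339 genes were higher and 322 lower against the mean, and the other 13 genes named as higher were called as before. Epyc and Bmp5, which were below the 20 CPM asked of the 14 genes, were also called higher while 1 cell held 67.9% and 54.5% of their UMIs in replicate 1. Epyc, a proteoglycan, was at 15.2 and 13.2 CPM in members, at 0 in both libraries of A2m Spon1 cells and at 0 and 11.4 in Pappa2 Cilp cells, against which it did not pass (adjusted p 0.429 by edgeR). Bmp5, a bone morphogenetic protein, was at 5.99 and 10.7 CPM in members.

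The 12 genes named for the largest decreases were those with at least 20 CPM on average in the other classes, and among them Ptx3 fell most. Ptx3, a secreted pattern recognition protein, was at 0 CPM in replicate 1 (which allows up to 1.63 CPM) and 1.38 in replicate 2 of the members, at 4.23 and 4.84 in A2m Spon1 cells and at 45.1 and 49.1 in Pappa2 Cilp cells (log2 -4.09, SE 0.55, adjusted p 0.000551 by edgeR). Against A2m Spon1 cells alone it did not pass, with an adjusted p of 0.117 by edgeR. Sfrp4, a secreted inhibitor of Wnt proteins, was at 8.17 and 26.3 CPM, against 51.8 and 73.9 and then 247 and 259 (log2 -2.87, SE 0.25, adjusted p 1.64e-05 by edgeR). Fn1, fibronectin, was at 2.72 and 12.1 CPM, against 20.1 and 45.2 and then 43.5 and 122 (log2 -2.81, SE 0.24, adjusted p 1.57e-05 by edgeR). In each library all 3 genes were lowest in members, intermediate in A2m Spon1 cells and highest in Pappa2 Cilp cells.

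The same order held within each library for Angptl7, an angiopoietin-like protein at 8.71 and 5.54 CPM in members and 181 and 88.0 in Pappa2 Cilp cells (log2 -2.71, SE 0.30), and for Greb1, an oestrogen-responsive gene at 7.08 and 20.4 CPM in members and 88.6 and 173 in Pappa2 Cilp cells (log2 -2.57, SE 0.20). Zfpm2, a cofactor of GATA transcription factors, was at 24.5 and 25.3 CPM in members, 51.8 and 93.2 in A2m Spon1 cells and 134 and 157 in Pappa2 Cilp cells (log2 -2.12, SE 0.18). Plxna4 and Tenm2, also known from nerve cells, were among the lower ones. Plxna4, a semaphorin receptor, was at 1.09 and 2.08 CPM in members (log2 -3.28, SE 0.44), and Tenm2, a teneurin of cell contacts, at 36.5 and 38.4 CPM against 148 to 260.1 in the other sums (log2 -2.35, SE 0.20). Clvs2, Brinp3 and Rgs7, likewise known from nerve cells, and Ces2g completed the named genes. Their log2 fold changes were -3.72 (SE 0.38), -3.54 (SE 0.56), -2.52 (SE 0.52) and -2.24 (SE 0.28), in this order. Like Ptx3, Angptl7 (11.6 and 15.3 CPM in A2m Spon1 cells) and Rgs7 did not pass against A2m Spon1 cells alone (adjusted p 0.164 and 0.27 by edgeR). Without the library block, Brinp3, Fn1, Rgs7 and Ces2g were no longer called.

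**Figure D3:**
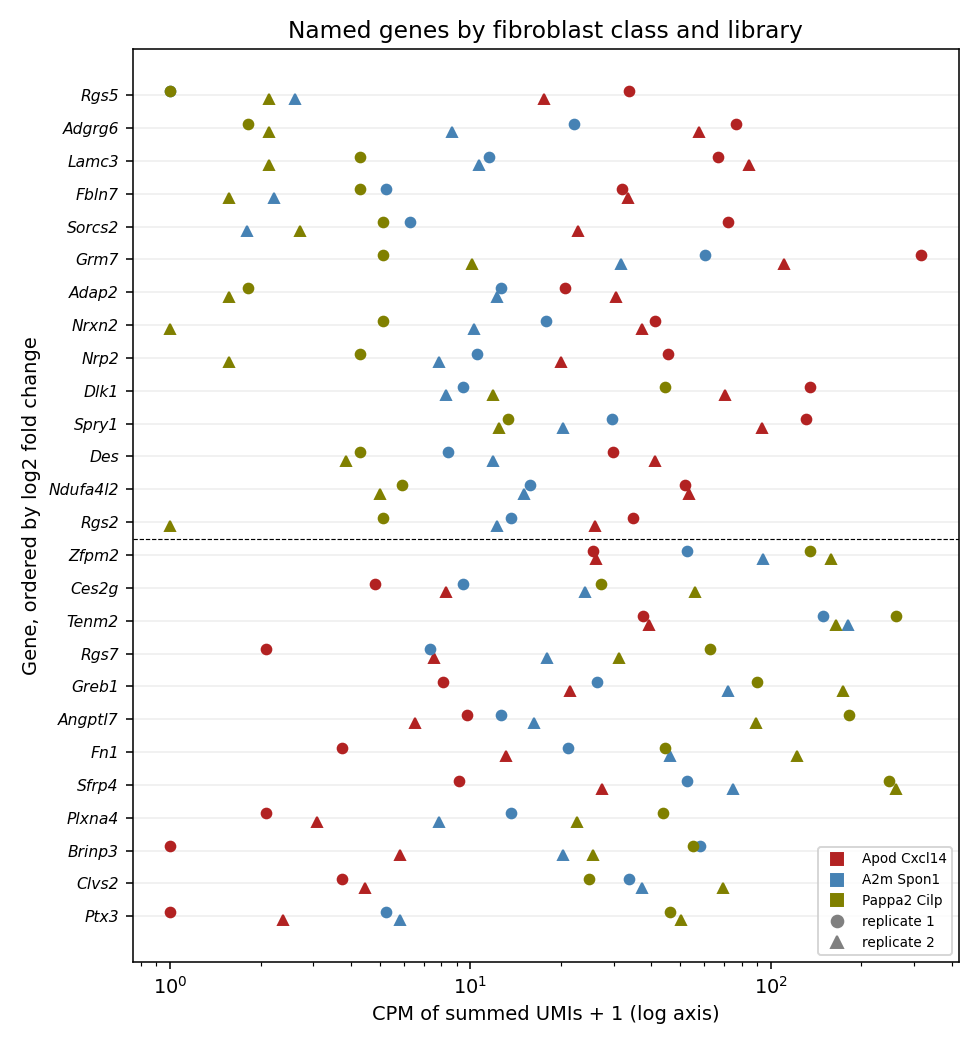
CPM of summed UMIs plus 1 (log axis) of the 14 genes most higher (top) and the 12 most lower (bottom) in Apod Cxcl14 cells, for each fibroblast class (colour) and library (symbol). By the rule that named them, the genes differ in the same direction from both other classes in each library, and most UMIs of Rgs5 come from 1 cell in each library.

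Genes of 22 lists were then counted, where higher and lower refer to the mean of the other 2 classes unless another comparison is named. Of the 120 genes named in all that were called against this mean, 57 were called against each of the other classes, 59 against Pappa2 Cilp cells only, 2 against A2m Spon1 cells only and 2 against neither alone. In 5 of them the difference from 1 of the classes had the opposite sign. Genes of the basement membrane, the thin sheet of laminins, type IV collagen and perlecan that surrounds vessels, nerves and epithelia, formed the list with the largest median. Of its 13 tested genes 8 were higher against the mean of the other classes and 0 lower, with a median log2 difference of 0.86. Over all genes tested 3.42% were higher and 3.1% lower, and the median was 0.0069. The shares of higher and lower genes were 1.21% and 1.38% against A2m Spon1 cells alone and 4.16% and 4.18% against Pappa2 Cilp cells. These shares stand beside the counts of every list below. Lamb1, the laminin beta 1 chain, was at 257 and 268 CPM in members, 150.0 and 183 in A2m Spon1 cells and 77.1 and 82.8 in Pappa2 Cilp cells (log2 1.14, SE 0.12, adjusted p 6.27e-05 by edgeR). Nid2, which links laminin to collagen, was at 248 and 190.4 CPM (log2 1.06, SE 0.12), and Hspg2, perlecan, at 496 and 453 CPM (log2 0.90, SE 0.10). Both member sums of Lamb1, Nid2 and Hspg2 lay above those of the other classes. Against A2m Spon1 cells alone 3 of the 13 were higher, Lamc3 and Lamb1 among them, and against Pappa2 Cilp cells 8. Nid2 and Hspg2 did not pass against A2m Spon1 cells alone (adjusted p 0.063 and 0.0764 by edgeR). Lamb2, the beta 2 chain, was at 100.2 and 131 CPM and did not pass (adjusted p 0.638 by edgeR).

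Of collagens outside the rule 6 of 18 were higher and 0 lower, with a median of 0.30. They included both chains of the main type IV collagen. Col4a1 was at 1208 and 1303 CPM in members, 858 and 928 in A2m Spon1 cells and 392 and 395 in Pappa2 Cilp cells (log2 1.03, SE 0.08, adjusted p 1.25e-05 by edgeR), and Col4a2 at 447 and 491 CPM (log2 1.01, SE 0.11). Col15a1 and Col18a1, collagens of basement membrane zones, were at 1045 and 1133 CPM (log2 0.80, SE 0.08) and at 64.8 and 73.0 CPM (log2 1.84, SE 0.21). The fibrillar Col1a1, which helped to choose fibroblasts and was not tested, was at 1156 and 1792 CPM in members, 2094 and 2551 in A2m Spon1 cells and 1590.0 and 1717 in Pappa2 Cilp cells. Of the 18 collagens 2 were higher against A2m Spon1 cells alone and 8 against Pappa2 Cilp cells. Col4a2 and Col15a1 did not pass against A2m Spon1 cells alone (adjusted p 0.103 and 0.217 by edgeR). Among metalloproteinases and their inhibitors 5 of 25 were higher and 1 lower (median 0.08). Timp3, an inhibitor bound to matrix, was at 275 and 386 CPM in members, 67.6 and 66.6 in A2m Spon1 cells and 209 and 291 in Pappa2 Cilp cells (log2 1.31, SE 0.13, adjusted p 4.71e-05 by edgeR), with no call against Pappa2 Cilp cells (adjusted p 0.22 by edgeR). Adamts9, a protease of proteoglycans, was at 274 and 227 CPM (log2 1.62, SE 0.13).

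Of the small leucine-rich proteoglycans, which organise collagen fibrils, 1 of 10 was higher and 3 were lower (median -0.07). The lower ones were Ogn (log2 -0.70, SE 0.09), Omd (log2 -1.54, SE 0.23) and Aspn, which was at 14.7 and 19.0 CPM in members, 1.06 and 28.7 in A2m Spon1 cells and 272 and 314 in Pappa2 Cilp cells (log2 -2.17, SE 0.36). None of these passed against A2m Spon1 cells alone (adjusted p 0.359, 0.086 and 0.96 by edgeR), where 1 of the 10 was higher and 0 lower. Of elastic fibre and matricellular genes 6 of 38 were higher and 6 lower (median -0.003). Elastin (Eln) was at 247 and 319 CPM and lower (log2 -0.66, SE 0.12), as was Ltbp4, a binding protein of latent TGF-beta in elastic fibres (log2 -0.99, SE 0.12). Ccn5, a matricellular protein, was at 0.544 and 0.346 CPM in members, 1 UMI in each library, at 1.06 and 13.7 in A2m Spon1 cells and at 6.56 and 22.9 in Pappa2 Cilp cells (log2 -4.64, SE 0.71, adjusted p 0.00137 by edgeR). Of the 38 genes 4 were higher and 3 lower against A2m Spon1 cells alone. Fbln7, Sparcl1 (log2 0.54, SE 0.07) and Ccn1 (log2 0.96, SE 0.15) were higher.

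Genes of adventitial and of parenchymal fibroblasts were listed separately. Of 15 adventitial genes 6 were lower and 1 higher (median -0.51), and against Pappa2 Cilp cells 7 were lower and 0 higher (median -0.9985 beside 0.0027 over all genes). In the comparison with A2m Spon1 cells 4 were lower and 0 higher (median -0.46 beside 0.0072). The lower ones included Cd248, endosialin (log2 -0.98, SE 0.15), the semaphorin Sema3c (log2 -1.38, SE 0.14), Opcml, an adhesion molecule at 158 and 221 CPM in members and 468 to 775 in the other sums (log2 -1.63, SE 0.16), and Fn1. Tnfaip6, which binds hyaluronan, was higher (log2 0.37, SE 0.09). Clec3b, a member of the list found widely in such cells, was at 924 and 926 CPM and did not pass (adjusted p 0.917 by edgeR). Of 11 parenchymal genes 3 were higher and 2 lower (median 0.23). The higher ones were Lpl, lipoprotein lipase, at 527 and 742 CPM against 275 to 386 in the other sums (log2 0.82, SE 0.11), with Col15a1 and Hspg2, which stand in the matrix lists too. The lower ones were Inmt, a methyltransferase at 605 and 798 CPM in members and 2162 and 2090.5 in Pappa2 Cilp cells (log2 -1.10, SE 0.10), and Gas6, a ligand of TAM receptors (log2 -0.92, SE 0.13). Against A2m Spon1 cells alone 1 of the 11 parenchymal genes was higher and 2 were lower. Col15a1 and Hspg2 did not pass there (adjusted p 0.217 and 0.0764 by edgeR). Against Pappa2 Cilp cells 4 were higher and 2 lower.

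**Figure D4:**
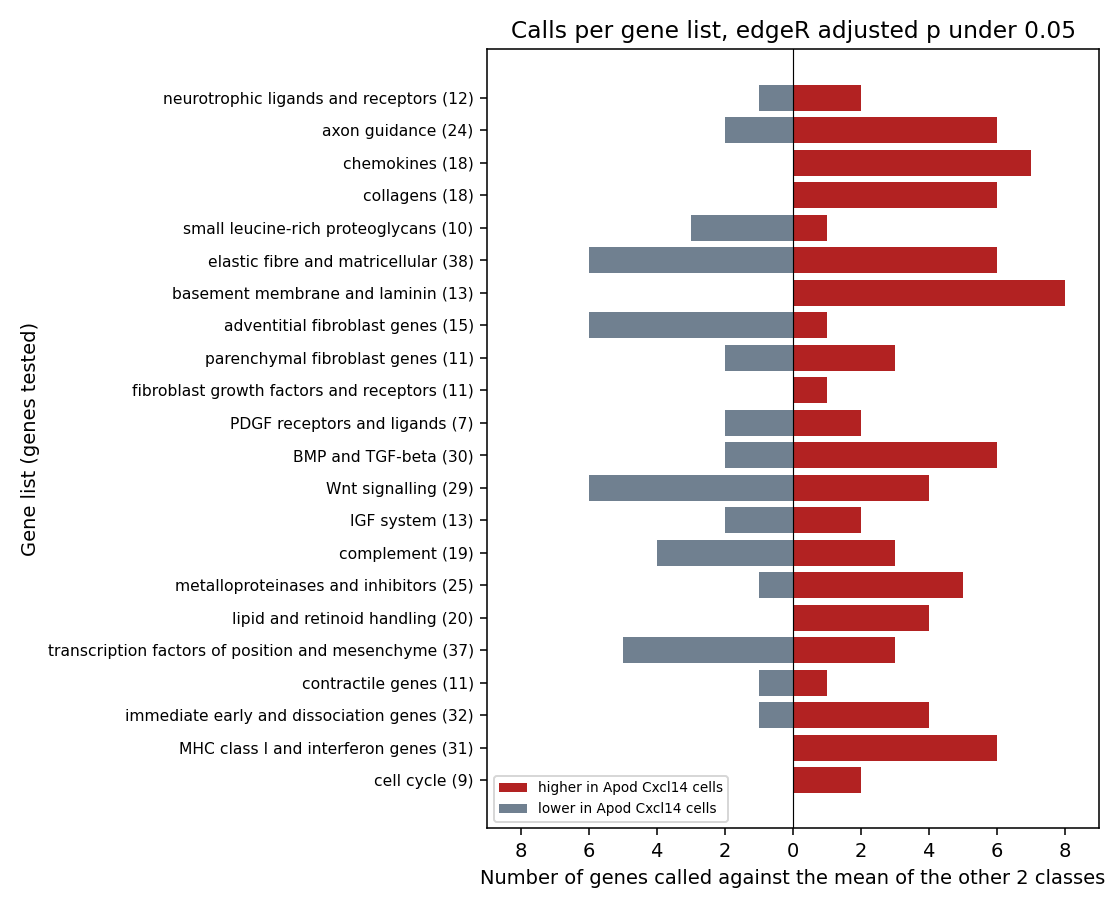
Number of genes of each of 22 lists that edgeR called higher (right) or lower (left) in Apod Cxcl14 cells against the mean of the other 2 fibroblast classes, with the number tested in parentheses. Basement membrane genes, chemokines, collagens and MHC class I and interferon genes have calls on the higher side only. So do lipid and retinoid, cell cycle and fibroblast growth factor genes, with fewer calls. Adventitial genes lie mainly on the lower side.

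Among ligands and receptors, chemokines and related cytokines were higher in 7 of 18 tested genes and lower in 0 (median 0.49). Cxcl14 itself chose the cells and was not in the list. Cxcl5, which attracts neutrophils, was at 151 and 48.1 CPM in members, 11.6 and 14.1 in A2m Spon1 cells and 18.9 and 13.1 in Pappa2 Cilp cells (log2 2.47, SE 0.26, adjusted p 7.17e-05 by edgeR). Ccl11, eotaxin, was at 765 and 763 CPM, against 716 and 518 and then 68.9 and 148 (log2 1.50, SE 0.20), and it did not pass against A2m Spon1 cells alone (adjusted p 0.79 by edgeR). Il34, a ligand of the macrophage receptor CSF1R, was at 18.5 and 18.0 CPM (log2 2.26, SE 0.36), and Cx3cl1, fractalkine, at 10.3 and 11.4 CPM (log2 2.93, SE 0.49). Cxcl10, an interferon-induced chemokine, was at 451 and 418 CPM and did not pass (adjusted p 0.692 by edgeR). Genes of MHC class I and the interferon response were higher in 6 of 31 and lower in 0 (median 0.32), among them H2-T23 (log2 0.88, SE 0.13), Isg15 (log2 1.38, SE 0.21), Ifit3 (log2 1.13, SE 0.20) and Ifitm1 (log2 1.10, SE 0.12). Ifitm1 was at 511 and 321 CPM in members, 447 and 362 in A2m Spon1 cells and 93.5 and 72.0 in Pappa2 Cilp cells, and did not pass against A2m Spon1 cells (log2 -0.05, adjusted p 0.955 by edgeR), nor did Ifit3 (adjusted p 0.115). When set against A2m Spon1 cells alone, 5 of the 18 chemokines and 3 of the 31 MHC and interferon genes were higher. Complement genes were split, with 3 of 19 higher and 4 lower (median -0.07). Vtn, vitronectin, at 96.4 and 143 CPM in members, 111 and 158 in A2m Spon1 cells and 8.20 and 6.28 in Pappa2 Cilp cells, was higher against the mean (log2 1.91, SE 0.17) but not against A2m Spon1 cells (log2 -0.22, adjusted p 0.703 by edgeR), and C3 was lower (log2 -0.71, SE 0.10).

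In the growth factor lists genes were called on both sides. Both receptors for PDGF were higher, Pdgfra at 1001 and 788 CPM against 490.2 to 689.8 in the other sums (log2 0.54, SE 0.09, adjusted p 0.00196 by edgeR) and Pdgfrb (log2 0.71, SE 0.16), while the ligands Pdgfa (log2 -1.74, SE 0.30) and Pdgfc (log2 -1.32, SE 0.15) were lower. These were 2 higher and 2 lower of 7 tested, with a median of -0.08. In the BMP and TGF-beta list 6 of 30 were higher and 2 lower (median 0.10). The ligands Bmp2 (log2 0.92, SE 0.14), Bmp4 (log2 0.62, SE 0.12) and Bmp7 were higher, the last at 61.5 and 43.3 CPM in members, 44.4 and 23.4 in A2m Spon1 cells and 4.92 and 6.86 in Pappa2 Cilp cells (log2 1.82, SE 0.23). The BMP antagonist Grem1 (log2 -0.85, SE 0.20) and Id2, a target of BMP signalling (log2 -1.43, SE 0.14), were lower. Of the genes named here, Pdgfrb, Pdgfa, Pdgfc, Bmp2, Bmp4, Bmp7, Grem1 and Id2 were called against Pappa2 Cilp cells and not against A2m Spon1 cells. Over the whole BMP and TGF-beta list, 5 of 30 were higher and 0 lower against A2m Spon1 cells alone. Against Pappa2 Cilp cells 4 of the 30 were higher and 5 lower. Of the 7 PDGF genes 1 was higher and 0 lower against A2m Spon1 cells, and 2 were higher and 2 lower against Pappa2 Cilp cells.

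Wnt signalling had 4 higher and 6 lower of 29 (median -0.07, or -0.12 with the gene absent from 1 class set at its counting limit). Ror1, a receptor for Wnt5a, was at 645 and 370.4 CPM in members, 259.9 and 194 in A2m Spon1 cells and 81.2 and 78.8 in Pappa2 Cilp cells (log2 1.81, SE 0.14, adjusted p 8.35e-06 by edgeR). The R-spondin receptor Lgr4 was higher (log2 1.59, SE 0.32) and the related receptor Lgr5 lower (log2 -1.48, SE 0.22), as were the secreted inhibitors Sfrp1 (log2 -0.87, SE 0.12) and Sfrp4. In the IGF system 2 of 13 were higher and 2 lower (median 0.25). Igfbp3, a carrier of IGFs, was lower at 420.2 and 562 CPM in members and 1367 and 1919.6 in Pappa2 Cilp cells (log2 -1.46, SE 0.12), and Igf1 at 1705 and 2401 CPM did not pass (adjusted p 0.994 by edgeR). Of fibroblast growth factors, their receptors and related ligands 1 of 11 was higher, Hgf (log2 0.64, SE 0.16), and 0 lower (median -0.24). Of the 29 Wnt genes 1 was higher and 1 lower against A2m Spon1 cells alone, and Lgr4, Lgr5, Sfrp1 and Hgf were not called. Hgf did not pass against Pappa2 Cilp cells alone either (adjusted p 0.0872 by edgeR).

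Since Ntrk3 marks the cells, genes of neurotrophic signalling were listed separately, and 2 of 12 were higher and 1 lower (median 0.02). Negr1, a neuronal growth regulator on the cell surface, was at 969 and 519 CPM in members, 442 and 258 in A2m Spon1 cells and 225 and 173 in Pappa2 Cilp cells (log2 1.41, SE 0.11, adjusted p 1.25e-05 by edgeR). Its relative Ntm was at 99.1 and 86.2 CPM in members, 159.5 and 108 in A2m Spon1 cells and 16.4 and 25.1 in Pappa2 Cilp cells. It was higher against the mean (log2 0.75, SE 0.18) and against Pappa2 Cilp cells, but both member sums were below those of A2m Spon1 cells in the same library, a difference that did not pass (log2 -0.55, adjusted p 0.214 by edgeR). Ntrk2, the receptor TrkB, was at 813 and 744 CPM and did not pass (adjusted p 0.437 by edgeR). Axon guidance genes were higher in 6 of 24 and lower in 2 (median 0.01), with Nrp1 (log2 0.91, SE 0.12), Nrp2, the Slit receptor Robo1 (log2 0.77, SE 0.13) and Ntn4, a netrin of basement membranes (log2 1.06, SE 0.21), on the higher side and Sema3c and Plxna4 on the lower. Against A2m Spon1 cells alone 2 of the 24 were higher and 3 lower, beside 1.21% and 1.38% over all genes. Robo1 and Ntn4 did not pass there (adjusted p 0.311 and 0.436 by edgeR).

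Of lipid and retinoid genes 4 of 20 were higher and 0 lower (median 0.09), Lpl and the transporters Abca8a, at 604 and 529.7 CPM (log2 1.28, SE 0.12), Abca8b and Abca9. Abca8b and Abca9 did not pass against A2m Spon1 cells alone, where 2 of the 20 were higher and 1 lower. Of transcription factors 3 of 37 were higher and 5 lower (median -0.15): Meox2 (log2 2.29, SE 0.37), Ebf1 and Nr2f1 were higher, and Tcf21 (log2 -1.36, SE 0.22), Sox5 (log2 -0.85, SE 0.11), Sox6, Sox9 and Hand2 were lower. With A2m Spon1 cells alone as the comparison, 1 of the 37 was higher and 2 were lower. Ebf1, Nr2f1, Sox6 and Hand2 did not pass there (adjusted p 0.0701, 0.307, 0.603 and 0.312 by edgeR). Of the list of contractile genes 1 of 11 was higher, Des, and 1 lower (median 0.24). The lower one was Npr3, which encodes a natriuretic peptide receptor and not a contractile protein. Of immediate early genes, which digestion of tissue can induce, 4 of 32 were higher and 1 lower (median 0.13), with Egr3 higher (log2 1.36, SE 0.14), Atf3 lower (log2 -0.60, SE 0.13) and Egr1 at 5166 and 4901 CPM not called (adjusted p 0.49 by edgeR). Atf3 did not pass against A2m Spon1 cells alone (adjusted p 0.781 by edgeR), where 2 of the 32 were higher and 0 lower. Of cell cycle genes 2 of 9 were higher, Ccnd2, a D-type cyclin at 188 and 187 CPM (log2 1.60, SE 0.17), and Cdkn1c, an inhibitor of cycling (log2 0.80, SE 0.12), and 0 lower (median 0.13). Without the library block 62 of the 120 named genes called against the mean of the other classes were no longer called, as were 57 of 61 called against A2m Spon1 cells and 41 of 122 called against Pappa2 Cilp cells.

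Markers of cells other than fibroblasts were few in the members. Of 7 Schwann cell markers Mbp was at 0 and Sox10 at 0.544 and 0 CPM, and their sum of 88.2 and 80.0 CPM (76.1 and 69.8 in A2m Spon1 cells, 80.4 and 88.0 in Pappa2 Cilp cells) came mostly from Cdh19, at 78.9 and 74.8 CPM. Of 6 perineurial markers Lypd2 and Moxd1 were at 0, and the sum was 36.5 and 23.5 CPM, with Slc2a1 at 32.7 and 17.3. Of 7 markers of endoneurial or epineurial fibroblasts 6 were tested, 0 were higher and Sox9 was lower (log2 -1.72, SE 0.36). The 8 pericyte and smooth muscle markers summed to 217 and 146 CPM in members, 221 and 205 in A2m Spon1 cells and 387 and 422 in Pappa2 Cilp cells, and Abcc9 and Kcnj8 were lower. Endothelial markers summed to 111 and 70.6 CPM, of which Pecam1 gave 71.3 and 5.54 and Kdr 38.6 and 61.6, with Cdh5, whose UMIs the rule limits, at 0.544 and 0. Thyroid, C cell, thymic epithelial, adipocyte, chondrocyte and skeletal muscle markers each summed to at most 5.44 CPM in members, immune markers to 15.8 and 7.27, mesothelial markers to 2.72 and 28.0 (Wt1) and tendon markers to 9.25 and 19.0. The sum of the 5 parathyroid markers was 1900.3 and 2124 CPM in members against 1755 to 1969 in the other classes and 225961 and 235007 in parathyroid cells. The reporter entry tdTomato was at 72.9 and 111 CPM. Gfp, whose meaning the labels do not give, had a UMI in 82.8% and 76.6% of members, 81.0% and 80.0% of A2m Spon1 cells and 83.6% and 81.5% of Pappa2 Cilp cells. Its level was 608 and 872 CPM in members, 357 and 498 in A2m Spon1 cells and 564 and 1047 in Pappa2 Cilp cells. It was higher against A2m Spon1 cells (log2 0.74, SE 0.13, adjusted p 0.00757 by edgeR) and did not pass against Pappa2 Cilp cells (log2 -0.14, adjusted p 0.673) or the mean (adjusted p 0.143).

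Along the count that chose the cells, borderline cells lay between the extremes in the genes outside the rule. The summed level of the 13 genes named as higher (without Rgs5) was 135 and 66.0 CPM in fibroblasts in which the Apod set trailed by 2 or more genes, 139 and 143 where it trailed by 1, and 488 and 216 where it was level. Among members it was 398 and 301 CPM at a lead of 1, 1055 and 738 at 2 and 1456 and 1069 at 3 or more. The 12 genes named as lower went from 1038 and 960 CPM at the first step to 22.3 and 52.6 at the last. Since these genes were chosen from the difference between the classes, the direction is set by that choice. The lower genes were at 511 and 469.6 CPM in level cells, 209 and 268 at a lead of 1 and 96.3 and 109.5 at a lead of 2. Median depth was 22595 UMIs at the first step and 17600.5 at the last in replicate 1, and 20241 and 18584 in replicate 2, and its part in the result was not tested.

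**Figure D5:**
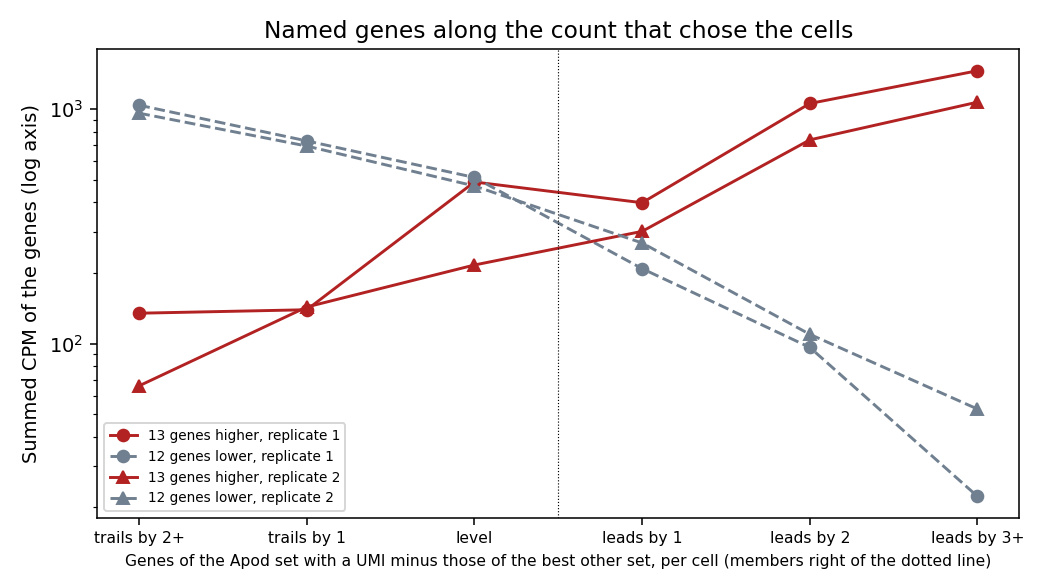
Summed CPM (log axis) of the 13 named higher genes without Rgs5 (solid red) and the 12 named lower genes (dashed grey) in all fibroblasts, by how many genes the Apod set led or trailed the best other set in a cell, for each library. The higher genes go from 135 and 66.0 CPM to 1456 and 1069, with the members right of the dotted line.

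The 2 libraries of members were alike in most genes. Of 3487 genes with at least 50 CPM in the members of a library, 111 differed by at least 2-fold between the libraries (on CPM plus 1), and 88 of these differed in the same direction in both other classes. Pou2f2, a transcription factor, was at 53.9 CPM in replicate 1 and 0.692 in replicate 2, and Pecam1 at 71.3 and 5.54. H19, an imprinted non-coding RNA, was at 107 and 12.5 CPM in members and 273 and 75.4 in Pappa2 Cilp cells. In A2m Spon1 cells it had 0 UMIs in replicate 1, which allows up to 3.17 CPM, and 9.28 CPM in replicate 2. Tcf21, which was lower in members than in the other classes, was at 16.9 and 56.1 CPM. The pools differ in mice, ages and chimerism, and these cannot be told apart from the library.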

How the data were processed

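The deposited values are UMI counts per gene and cell barcode, which the authors made with Cell Ranger 7.0.0 on the build mm10 (per the submitters' processing notes). Both libraries used a 3′ kit after enzymatic digestion, with doublets gated out by flow cytometry, per the labels' protocols. The step that called barcodes as cells is not described in the labels or headers. The members and gene lists were chosen with earlier results of these data known.

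Counts were summed per class and library and tested with edgeR 4.0.16 (TMM, filterByExpr, quasi-likelihood, 2 residual degrees of freedom) in R 4.3.3. The 22 genes of the rule and mitochondrial genes were fitted but not counted. Library was a block, since each library gave all 3 classes from its own mice. The differences between libraries correlated across 2813 genes at r of 0.633, 0.618 and 0.566 for the 3 pairs of classes. The replicates are separate pools of mice. A gene needed enough counts in only 1 class to be tested, and some were tested because of the class in which they are high. CPM and log2 fold changes were computed here, and the SE is the log2 fold change divided by the root of F.

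Named genes were those called against the mean with the same sign against both classes in each library and a mean of at least 20 CPM on the higher side, ribosomal, Gm-number and Rik genes left out, by the largest changes (14 higher, 12 lower). Each of the 22 lists added up to 4 called genes in each direction by smallest p and its uncalled gene of highest CPM, and markers of 19 cell types were always given. Epyc, Bmp5 and the genes that differed between libraries were chosen after their values were seen. In simulated counts of 10908 genes the test called 81 of 100 genes changed 1 on the log2 scale, 100 of 100 changed by 2 and 6 unchanged ones. The simulation gave every gene the same dispersion, set no difference between the other 2 classes and changed only genes of at least 20 CPM. It therefore does not cover genes of lower level or the spread of single genes between pools. Alternatives were other size factors, no count filter, DESeq2 1.42.0, no block, a lead of at least 2 genes, at least 1% matrix genes, Pth below 0.3%, predicted doublets removed, cells thinned to 5000 UMIs, classes called on 50% of the UMIs and tested on the rest, and each library left out. Added after seeing the data were the removal of mural cells and tied fibroblasts as a class of their own. The values of 1 gene of the neurotrophic list are not reported here. Scrublet in scanpy 1.11.5 called doublets.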

Additional observations from a re-analysis of the deposited data

How the results depend on the processing

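The number of genes called depended on the processing, while few directions did. Against the mean of the other classes, the 371 higher and 337 lower genes became 148 and 138 with DESeq2, 93 and 42 without the replicate block, and 164 and 152 with cells thinned to 5000 UMIs, where only 6674 genes could be tested. Without the count filter 612 of 20355 genes were higher. Against A2m Spon1 cells, 131 and 150 became 48 and 77 with DESeq2, 4 and 1 without the replicate block, 45 and 69 after thinning, and 308 and 273 without the count filter. Against Pappa2 Cilp cells, 452 and 454 became 227 and 202 with DESeq2, 154 and 141 without the replicate block, and 200 and 195 after thinning. All genes called by DESeq2 or without the block were among those called in the reported comparisons. The other alternatives, mural cells removed included, left these counts within 1.5 times, although some of them called partly other genes. Against A2m Spon1 cells, a lead of at least 2 genes gave 89 higher genes, of which 64 were among the 131. With classes called on a part of the UMIs and tested on the rest, 97 were higher and 76 of these were among the 131. Against the mean, 253 of 290 and 258 of 297 higher genes were among the 371. Only 9032 and 8915 genes could be tested in these fits. The share of members became 25.6% of fibroblasts when a lead of at least 2 genes was asked, and ran from 34.1% to 40.6% over single libraries.

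Of the 120 named genes called against the mean of the other classes, 30 were no longer called with DESeq2, 62 without the block, 24 after thinning, where 16 others could not be tested, 10 with a lead of at least 2 (5 not tested), 11 when 50% of the UMIs chose the class and the rest were tested (2 not tested), and 0 with other size factors. The 14 genes named as higher kept this call under each alternative in which they could be tested. Among the 12 lower, Brinp3 and Rgs7 were not called with DESeq2, Brinp3, Fn1, Rgs7 and Ces2g without the block, Plxna4 with a lead of at least 2, and Ptx3 and Brinp3 after thinning. C7, a complement gene with a log2 difference of -1.17, reversed to 0.26 with a lead of at least 2 and was -1.46 without replicate 1 and 0.47 without replicate 2. A single library leaves no residual degrees of freedom and gave values with no test, so no counts of calls could be made without a replicate. The log2 difference moved by more than the spread between libraries in 45 of the 120 genes without replicate 1 and in 49 without replicate 2. Depth per class limits genes under a few CPM, since a count of 0 allows up to 1.63 CPM in replicate 1 of the members and 1.04 in replicate 2.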
